A study of Mus musculus with 4 samples.

Results

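Proteoglycans are proteins that carry long sulphated sugar chains, the glycosaminoglycans. A chain is started on a serine of the core protein by a short linker and is then extended as heparan sulphate or chondroitin sulphate. Sulphotransferases decorate the growing chain, and the sulphate pattern sets which growth factors it holds. In the embryonic heart the cushions at the atrioventricular (AV) junction are swollen pads of such matrix, and the mesenchyme that fills them later forms valves and septa. The list followed here was chosen by function, with earlier results of these data known. It has 37 genes for proteoglycan cores and for enzymes that build, sulphate or trim the chains. Of these, 33 have a probe set with 1 annotated symbol among the 12393 genes so represented on the array, and the 4 others (Xylt1, Ndst1, Sulf1 and Chsy1) were not analysed here. Each gene is read from its probe set with the highest mean over the 4 arrays.

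Wild-type C57BL/6 mouse hearts between embryonic days 10.5 and 11.0 were dissected into the AV junction and the ventricular region, with tissue from about 80 hearts pooled for each. The RNA (230 ng for the AV pool, 250 ng for the ventricular pool) was amplified and read on Affymetrix MOE430A arrays, 2 per region, named 1a and 1b, which makes 4 arrays. No treatment or mutation was involved. The shared replicate number of 1a and 1b fits repeat readings of 1 pool, although the sources used here do not say so, and p-values then cover the spread between arrays and not between hearts. The dissected AV junction holds muscle and endocardium as well as cushion. In bulk tissue, fewer cells of a type and less RNA per cell cannot be told apart.

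The labels fitted the markers of the regions. Tbx2 and Bmp2, which mark AV canal muscle, were higher in the AV junction by log2 folds of 2.11 and 3.46, and Myl2 and Irx4, of ventricular muscle, were lower by -1.41 and -1.59 (AV junction minus ventricular region throughout). Other cell types moved with region too. Of markers tested, 7 of 11 of cushion mesenchyme were higher and 0 lower, 6 of 8 of red blood cells were lower and 0 higher, 5 of 10 of cardiac muscle were lower and 0 higher, and 4 of 5 of liver and yolk sac were higher and 0 lower. Summed over its 11 genes, cushion mesenchyme read 15694 and 13209 on the AV arrays against 4798 and 5030 on the ventricular arrays. The 9 red blood cell genes on the array summed to 18503 and 18328 against 47526 and 52704. The part of these cell types in the results below was not tested. Intensities are given after scaling of each array to a common trimmed mean of 500. The brightest Bacillus subtilis control, taken as background, read 52.6 to 58.6 on the AV arrays and 97.9 to 104 on the ventricular arrays.

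Most of the proteoglycan genes tested did not pass between the regions. Of the 26 members that passed a floor of 100 on the mean intensity, 2 were higher in the AV junction (Extl3 and Glce, both enzymes of heparan sulphate), 2 were lower (the cores Sdc3 and Cspg4) and 22 did not pass. To pass, a gene needed an adjusted p no higher than 0.05 (limma, Benjamini-Hochberg) over all 13403 probe sets tested. Over all 8410 genes tested, 8.47% were higher and 6.54% lower, 15.0% in either direction, so the 15.4% of members that passed is near the share of genes at large. The median log2 fold of the tested members was -0.06, as it was over all genes tested. No member tested reached a log2 fold of 1 in either direction. The median absolute log2 fold was 0.31 over the members tested and 0.28 over all genes tested.

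**Figure D1:**
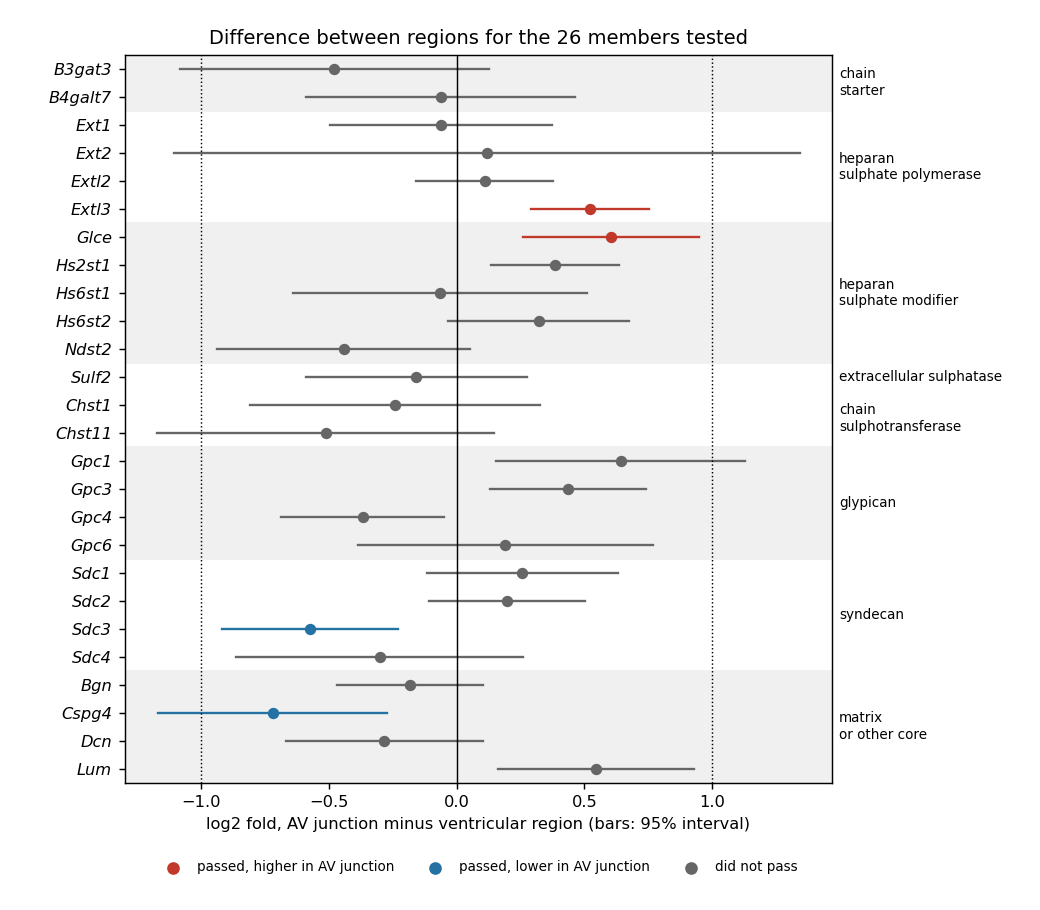
Log2 fold between AV junction and ventricular region for the 26 members tested, by role, with the 95% interval of each from limma as a bar and dotted lines at a 2-fold difference. Extl3 and Glce passed to the right of 0, Sdc3 and Cspg4 to the left, and the wide bar of Ext2 reaches past the dotted lines on both sides.

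For most members the spread between arrays was small enough to bound the difference on the scale of the fit, log2(intensity + 50). Among the 22 that did not pass, the 95% interval of the log2 fold lay inside a 2-fold difference in either direction for 18. The 4 others were Ext2, B3gat3, Chst11 and Gpc1. The count of 18 depends on the added 50, which shrinks the folds of dim genes. With 1 added instead, Ndst2 (-1.14 to 0.06), Chst1 (-1.14 to 0.47), Sdc4 (-1.05 to 0.32) and Lum (0.20 to 1.07) also reached past 2-fold. The rest of the 18 stayed inside. Spread between hearts is not covered by these intervals. Standard errors of the log2 fold ran from 0.10 to 0.52 with a median of 0.17. The arrays of the regions did not overlap for 17 members, 9 with the AV arrays above and 8 with them below, which is 65.4% of members tested against 62.4% of all genes tested.

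**Figure D2:**
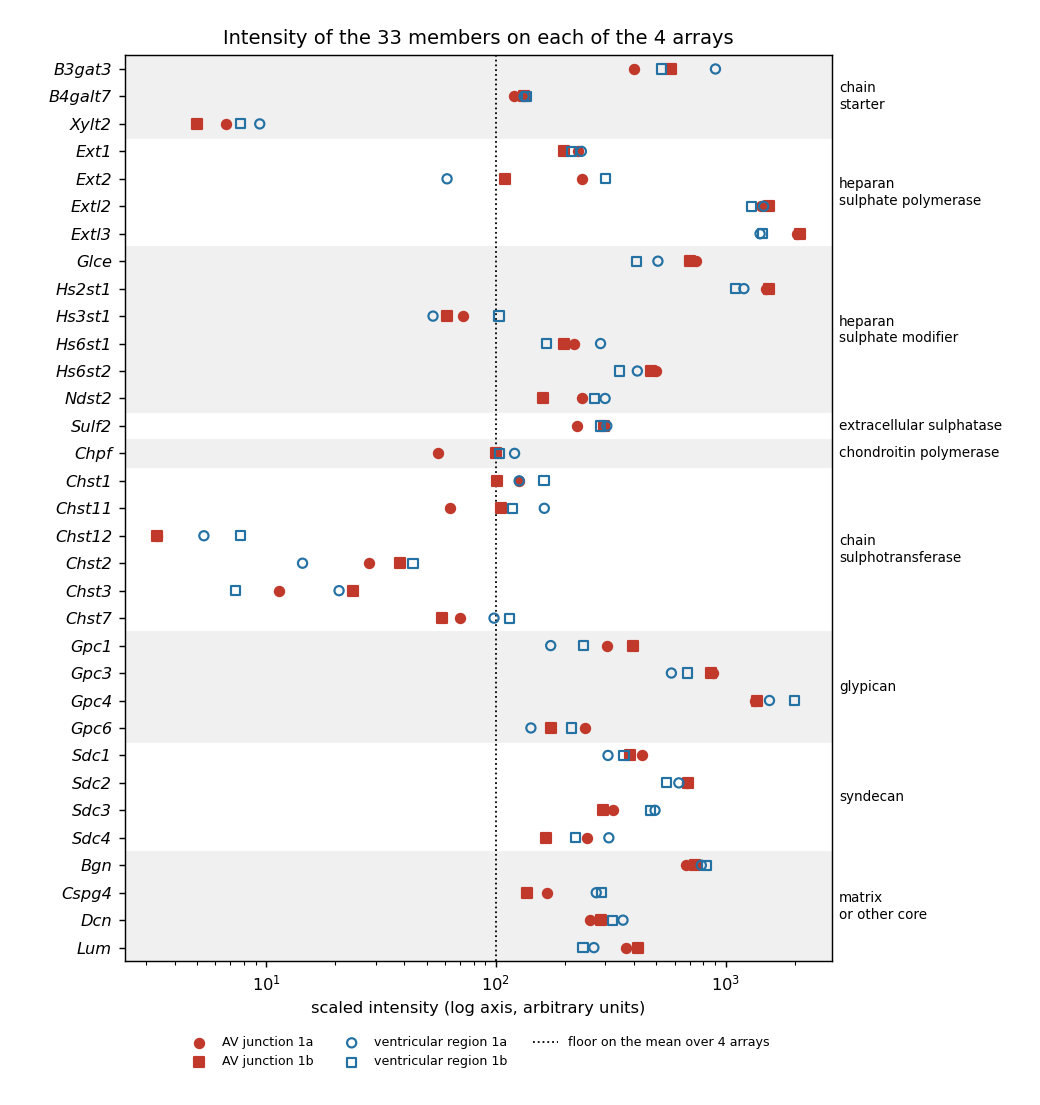
Scaled intensity (log axis) of the 33 members on each array, AV junction filled red and ventricular region open blue, by role. The dotted line marks 100, and the 7 members with a mean under it were not tested.

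Heparan sulphate is polymerised by the exostosin family. Extl3, which adds the first glucosamine that commits a chain to heparan sulphate, rose in the AV junction. It read 2044 and 2105 on AV arrays 1a and 1b and 1413 and 1450 on ventricular arrays 1a and 1b, so both AV arrays lay above both ventricular ones with little spread inside a region. This is a 1.43-fold difference (log2 fold 0.52, SE 0.10, adjusted p = 0.0159). It passed without AV array 1a and missed without AV array 1b (adjusted p = 0.0592), ventricular array 1a (0.0802) or ventricular array 1b (0.062), with log2 folds from 0.50 to 0.54. A second probe set of Extl3 read 39.5 and 55.0 against 72.8 and 80.5, opposite in direction, and was too dim to be tested. Both of its ventricular arrays lay below background.

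The other exostosin genes did not pass. The polymerase subunit gene Ext1 read 229 and 199 in the AV junction and 236 and 214 in the ventricular region, with interleaved arrays and a log2 fold of -0.06 (95% interval -0.50 to 0.37). Its partner Ext2 read 237 and 110 against 61.4 and 300, so the arrays of 1 region differed more than the regions did (log2 fold 0.12, SE 0.52). Without ventricular array 1b the log2 fold of Ext2 was 0.94, and without ventricular array 1a it was -0.71. Extl2, a related glucosaminyltransferase, read 1432 and 1545 against 1464 and 1292 and gave 0.11 (95% interval -0.16 to 0.38).

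After polymerisation the chain is deacetylated, epimerised and sulphated in turn. Glce, the epimerase that turns glucuronic into iduronic acid, rose from 508 and 410 on the ventricular arrays to 742 and 698 on the AV arrays. The arrays did not overlap, and the difference was 1.52-fold (log2 fold 0.60, SE 0.15, adjusted p = 0.0363). Glce missed with any 1 array left out, with adjusted p-values of 0.123 without AV array 1a, 0.0868 without AV array 1b, 0.0591 without ventricular array 1a and 0.145 without ventricular array 1b. Its second probe set read 59.3 to 116 and was not tested. Hs2st1, which sulphates the iduronic acid that Glce makes, read 1504 and 1543 against 1202 and 1108. Its arrays did not overlap either, but it just missed (log2 fold 0.39, 95% interval 0.14 to 0.64, adjusted p = 0.0541), and it passed with 4 of 16 other ways of processing, among them median scaling (adjusted p = 0.0176) and the replicate block (0.0385). Its dimmer probe sets gave 0.15 and 0.23 and did not pass.

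None of the remaining modifiers passed. Hs6st2, a 6-O-sulphotransferase, read 498 and 472 against 413 and 346 (log2 fold 0.32, adjusted p = 0.196). Its relative Hs6st1 read 218 and 198 against 286 and 166 (log2 fold -0.06), with ventricular arrays on both sides of the AV ones. Ndst2, a deacetylase and N-sulphotransferase, read 237 and 160 against 299 and 269 (log2 fold -0.44, adjusted p = 0.2). Hs3st1, whose product binds antithrombin, read 71.7 and 61.3 against 53.3 and 103 and was too dim to be tested. Sulf2, which removes 6-O-sulphates outside the cell, read 226 and 296 against 304 and 285 (log2 fold -0.16, 95% interval -0.59 to 0.27), and its sign turned with median scaling. The 9 polymerases and modifiers tested gave 2 higher genes, 0 lower ones and 7 without a call, where 8.47% of all genes were higher and 6.54% lower. Their median log2 fold was 0.12, against -0.06 over all genes, and nothing particular to these enzymes is read from so few genes.

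Enzymes of the shared linker and of chondroitin chains gave no gene that passed. B3gat3, which adds the last sugar of the linker, read 400 and 578 against 904 and 526 (log2 fold -0.48, SE 0.26), with overlapping arrays. With 1 array left out its log2 fold ran from -0.84 to -0.11, the latter without ventricular array 1a. A second probe set of B3gat3 gave -0.52 with arrays that did not overlap (adjusted p = 0.146). B4galt7, the galactosyltransferase that adds the first galactose of the linker, read 120 and 133 against 133 and 135 (log2 fold -0.06). It is read by a probe set of the _x_at type, whose probes can match other transcripts. Chst11, which sulphates chondroitin at position 4, read 63.3 and 105 against 163 and 118 (log2 fold -0.51, SE 0.28). Chst1, a sulphotransferase of keratan sulphate, read 127 and 101 against 126 and 162 (log2 fold -0.24). The xylosyltransferase gene Xylt2 and the sulphotransferase genes Chst2, Chst3 and Chst12 read between 3.35 and 43.6 and were above background on none of the 4 arrays. Chpf, a chondroitin polymerising factor, read 56.3 and 100.2 against 121 and 104. Chst7, a chondroitin 6-sulphotransferase, read 70.0 and 58.3 against 98.2 and 114. Both lay under the floor.

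Glypicans, heparan sulphate cores held on the membrane by a lipid anchor, gave 0 of 4 genes that passed. Gpc1 had the largest positive log2 fold of the members tested, 0.64 (95% interval 0.15 to 1.13, adjusted p = 0.0831), from 306 and 393 on the AV arrays against 173 and 240. Gpc3, a growth restraint that is lost in an overgrowth syndrome, read 879 and 860 against 581 and 683 (log2 fold 0.44, adjusted p = 0.0671). Gpc4 went the other way, at 1341 and 1372 against 1553 and 2003 (log2 fold -0.37, adjusted p = 0.116). The arrays of the regions did not overlap for any of these 3 genes, as was so for 62.4% of all genes tested. Gpc3 and Gpc4 lie close together on the X chromosome, and the log2 ratio of Gpc3 to Gpc4 within an array was -0.58 and -0.64 in the AV junction and -1.34 and -1.49 in the ventricular region, an unequal change given as a description, since the smallest p that an exact permutation (two-sided) allows with so few arrays is 0.333. Gpc6 read 246 and 174 against 142 and 214 (log2 fold 0.19), with overlapping arrays. Gpc1 passed with the replicate block (adjusted p = 0.0372) and with median scaling (0.0333). Gpc3 passed when probe sets of each gene were averaged (0.0478) and with median scaling (0.0282). It has 1 probe set, so averaging left its own log2 fold unchanged. Median scaling moved the median of all genes up by 0.16.

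Syndecans are transmembrane heparan sulphate cores that act as co-receptors for growth factors. Sdc3, best known from the nervous system, fell in the AV junction. It read 322 and 294 there against 493 and 473 in the ventricular region, with tight and separate pairs of arrays (log2 fold -0.57, SE 0.15, adjusted p = 0.043), which is 1.49-fold higher in the ventricular region. A second probe set gave -0.60 with arrays that did not overlap and did not pass (adjusted p = 0.133). The third read 25.1 and 127 against 14.8 and 21.8, opposite in direction, and was too dim to be tested. Sdc3 missed with no filter and without the variance trend. The call was lost with any 1 array left out, at adjusted p-values of 0.0864 without AV array 1a, 0.133 without AV array 1b, 0.164 without ventricular array 1a and 0.124 without ventricular array 1b, and also with quantile normalisation (0.0513) and median scaling (0.113). Of nerve and neural crest markers, 0 of 3 tested passed, and the 5 on the array summed to 509 and 654 against 427 and 451.

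Sdc1, a syndecan of epithelia, read 434 and 384 against 308 and 361 (log2 fold 0.26, adjusted p = 0.308) on a probe set of the _x_at type. Another probe set of Sdc1, not of that type, gave 0.20 and did not pass (adjusted p = 0.498). The third read 102 and 115 against 37.2 and 31.2 and was too dim to be tested. On it the AV level was at least 1.07-fold higher, with both ventricular arrays below background. The fourth was above background on no array. Sdc2, a syndecan of mesenchymal cells, read 682 and 684 against 626 and 555 on its brightest probe set (log2 fold 0.20, adjusted p = 0.333). A second probe set of Sdc2 read 450.0 and 558 against 279 and 301 and passed on its own (log2 fold 0.70, adjusted p = 0.032), so the probe sets of this gene share a direction and differ in size. The widely expressed Sdc4 read 251 and 165 against 310 and 222 (log2 fold -0.30), with overlapping arrays. Its other probe set gave -0.42 with arrays that did not overlap and did not pass (adjusted p = 0.214).

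**Figure D3:**
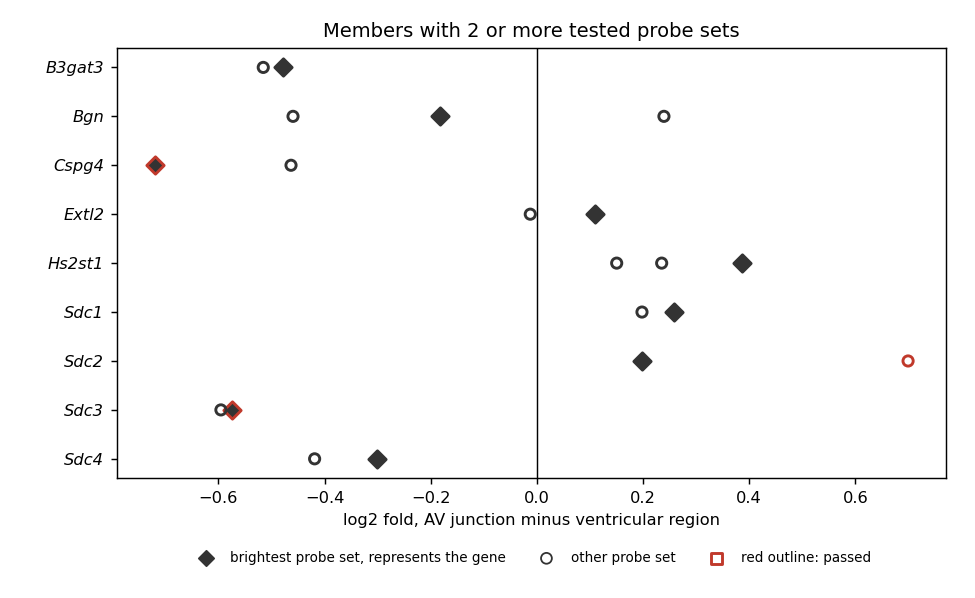
Log2 folds of every tested probe set for the 9 members with 2 or more of them; diamonds mark the brightest probe set, which represents the gene, circles the others, and a red outline those that passed. Probe sets of Bgn and Extl2 lie on both sides of 0, and the second probe set of Sdc2 lies at 0.70 against 0.20.

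Cspg4, the transmembrane chondroitin sulphate core known as NG2 and used as a pericyte marker, fell in the AV junction. The AV arrays read 166 and 136 and the ventricular arrays 274 and 287, all above background and without overlap (log2 fold -0.72, SE 0.19, adjusted p = 0.0478). It was 1.65-fold higher in the ventricular region. A second probe set gave -0.46 with overlapping arrays and did not pass (adjusted p = 0.317). When the probe sets of each gene were averaged Cspg4 missed, as it did with no filter and without the variance trend. The call was lost with quantile normalisation (adjusted p = 0.0827), with median scaling (0.0954) and with any 1 array left out, at 0.0813 without AV array 1a, 0.15 without AV array 1b, 0.146 without ventricular array 1a and 0.163 without ventricular array 1b. Of 7 smooth muscle and pericyte markers tested, 1 was higher (Pdgfrb, log2 fold 0.93) and 1 lower (Tagln, -0.98). Abcc9 was too dim to be tested and was at least 2.65-fold higher in the ventricular region. The 9 on the array summed to 14758 and 16199 against 17559 and 18668, with Myh11 not above background on any array. Most of each sum was Acta2 alone, at 13350 and 14418 against 15449 and 16261.

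The small leucine-rich proteoglycans of the matrix did not pass. Lum, which spaces collagen fibrils, came nearest, at 369 and 417 on the AV arrays against 267 and 239 (log2 fold 0.55, 95% interval 0.16 to 0.93, adjusted p = 0.0666). It passed with quantile normalisation (0.047) and median scaling (0.0235). Dcn, its relative that binds TGF-beta, read 256 and 286 against 358 and 323 (log2 fold -0.28, adjusted p = 0.277). These collagen-binding genes lay on opposite sides of 0, and neither passed. Their arrays did not overlap, as was so for 62.4% of all genes tested. Bgn read 673 and 734 against 785 and 824 (log2 fold -0.18). Its other probe sets gave 0.24 and -0.46, and the probe sets of Bgn therefore settle no direction.

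Among all genes tested the median log2 fold moved with mean intensity. Over 5 equal bins from dim to bright it was -0.22, -0.15, -0.03, 0.04 and 0.05. These bins held 4, 9, 5, 5 and 3 of the members. Cspg4 lay in bin 2 and Sdc3 and Glce in bin 3, while Extl3 was in bin 5, the brightest. A cyclic loess normalisation, chosen after this slope was seen, kept the calls of Extl3 and Glce and brought in Lum (adjusted p = 0.0433). Sdc3 kept most of its log2 fold, -0.53 against -0.57, and missed (0.0575). Cspg4 went from -0.72 to -0.58 and missed (0.0978).

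**Figure D4:**
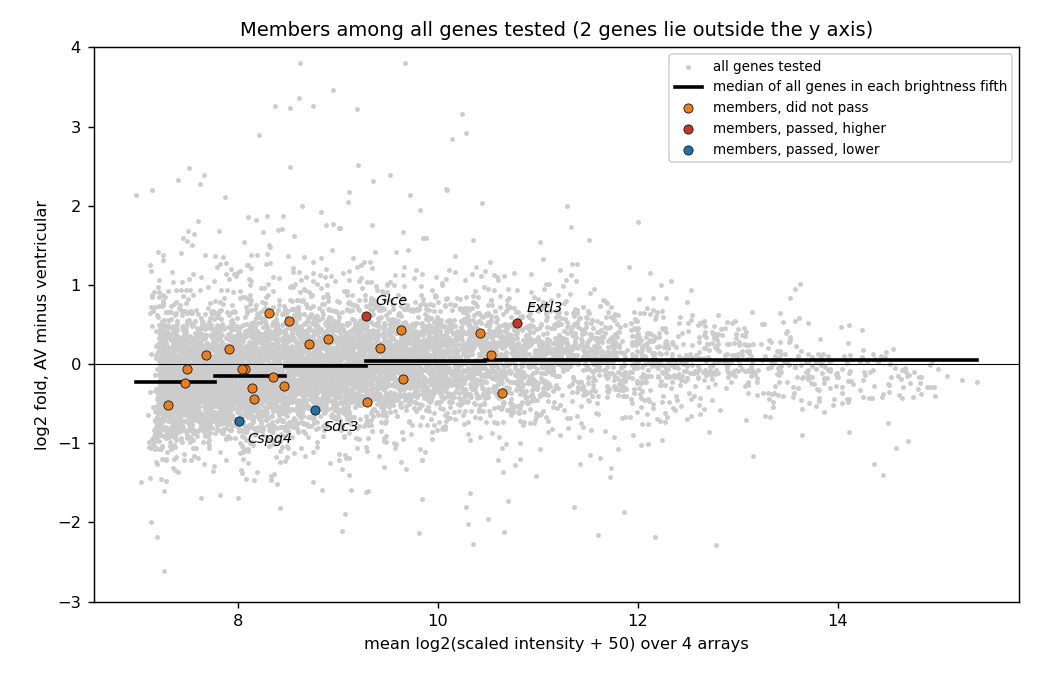
Log2 fold against mean log2 intensity for all 8410 genes tested (grey) and the 26 members (coloured), with black bars at the median of all genes in each of 5 equal bins of brightness. The bars step from -0.22 at the dim end to 0.05 at the bright end, and the members lie within the body of the grey points.

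Other genes of the same pathway, from a list of 75 chosen by function, included larger differences. Among 40 tested genes there were 9 higher and 3 lower calls, 30.0% against 15.0% of all genes, and the median log2 fold was 0.06. That list was drawn up with earlier results of these data known, so the excess of calls is no test of the pathway. The supply of activated sugar and sulphate gave 4 higher of 10 tested and 0 lower. Papss2 and Papss1, which make the sulphate donor for every sulphotransferase above, read 1560 and 1303 against 52.3 and 59.4, and 843 and 966 against 447 and 489. For Papss2 the AV level was at least 14.1-fold higher, with both ventricular arrays below background, on 1 of its 4 probe sets; the others were too dim to be tested. Papss1 rose by 0.88 on the log2 scale (adjusted p = 0.00773). Ugdh, which makes the glucuronic acid donor, rose from 942 and 1071 to 2223 and 2191 (log2 fold 1.10, adjusted p = 0.00143). Bpnt2, a phosphatase that clears the by-product of sulphation, was also higher (0.41) and was named after its values were seen. Its other probe sets gave 0.11 and 0.40 and did not pass.

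Of 4 further genes of chain sulphation tested, all sulphotransferases, 2 were higher and 0 lower. Chst14, which sulphates dermatan, read 494 and 329 against 133 and 83.8 (log2 fold 1.54, adjusted p = 0.00993), and 1 of the ventricular arrays exceeded background. Chst15, which adds a second sulphate to chondroitin units, read 317 and 338 against 31.5 and 19.8, at least 3.24-fold higher (adjusted p = 0.00162), with both ventricular arrays below background. The 2 others did not pass and had negative log2 folds: Ndst4, with an AV level below the ventricular one on every array (-0.83, adjusted p = 0.0637), and Hs3st3b1 with overlapping arrays (-0.40, 0.324). Among 11 other cores tested, 3 were higher and 2 lower. The chondroitin sulphate core Vcan rose by 1.15, the basement membrane collagen Col18a1 by 0.75 and Fmod by 0.74, although 4 of the 6 probe sets of Fmod did not pass. The cores Agrn and Hspg2 fell by 1.10 and 0.82, opposite in direction to Col18a1. Of 10 genes for chain breakdown 0 were higher and 1 was lower, Hexa at -0.59, named after its values were seen. The count of higher genes of this list was 6 without AV array 1a, 9 without AV array 1b and 7 without each ventricular array, and that of lower genes was 1 when the 1b array of either region was left out; which genes these were was not compared.

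Promoter sequence was available in RefSeq (GRCm38.p6) for 27 of the 37 members, among them Glce, Sdc3 and Cspg4 of the 4 that passed. The 250 bases before each start are shown because these genes differed between regions in opposite directions. They were searched on both strands for the E-box CANNTG, read by Twist factors, the T-box half-site AGGTGTGA and the motif GGCGCC bound by BMP Smads. Capitals mark a match. The windows are chr9:62122610-62122859 on the minus strand for Glce, chr4:130792287-130792536 on the plus strand for Sdc3 and chr9:56864854-56865103 on the plus strand for Cspg4.
Glce: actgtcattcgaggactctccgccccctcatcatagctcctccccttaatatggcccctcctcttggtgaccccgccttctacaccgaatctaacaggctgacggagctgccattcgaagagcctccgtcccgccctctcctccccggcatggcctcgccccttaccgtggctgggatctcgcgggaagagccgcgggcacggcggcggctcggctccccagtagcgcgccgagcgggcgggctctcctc
Sdc3: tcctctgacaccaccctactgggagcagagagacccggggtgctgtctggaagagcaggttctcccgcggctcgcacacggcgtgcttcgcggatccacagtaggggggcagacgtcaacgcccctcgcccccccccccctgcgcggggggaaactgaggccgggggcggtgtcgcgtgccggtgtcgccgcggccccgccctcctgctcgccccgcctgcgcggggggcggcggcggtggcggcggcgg
Cspg4: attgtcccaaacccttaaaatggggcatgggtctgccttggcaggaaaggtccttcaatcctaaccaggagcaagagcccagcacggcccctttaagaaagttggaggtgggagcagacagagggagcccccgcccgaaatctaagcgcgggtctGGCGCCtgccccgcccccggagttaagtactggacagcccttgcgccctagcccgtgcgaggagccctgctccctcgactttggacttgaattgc

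Only the Cspg4 window of these 3 held a match, 1 GGCGCC. Over all 32851 windows of that table the E-box occurred in 66.2%, the T-box half-site in 1.12% and GGCGCC in 9.59%. Among the 27 members with a window they occurred in 11, 0 and 5, taking the first start listed where a gene had several. The GC share was 67.2% for Glce, 76.4% for Sdc3 and 60.4% for Cspg4, against a median of 52.4% over all windows.

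Across 16 other ways of processing the data, 8 members passed at least once in all, and 18 of the 26 passed under none. Extl3 passed under 12 of them, Glce under 10, Sdc3 under 7 of 16 and Cspg4 under 4 of the 14 in which it was tested. No member that passed under any setting changed direction under another.

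**Figure D5:**
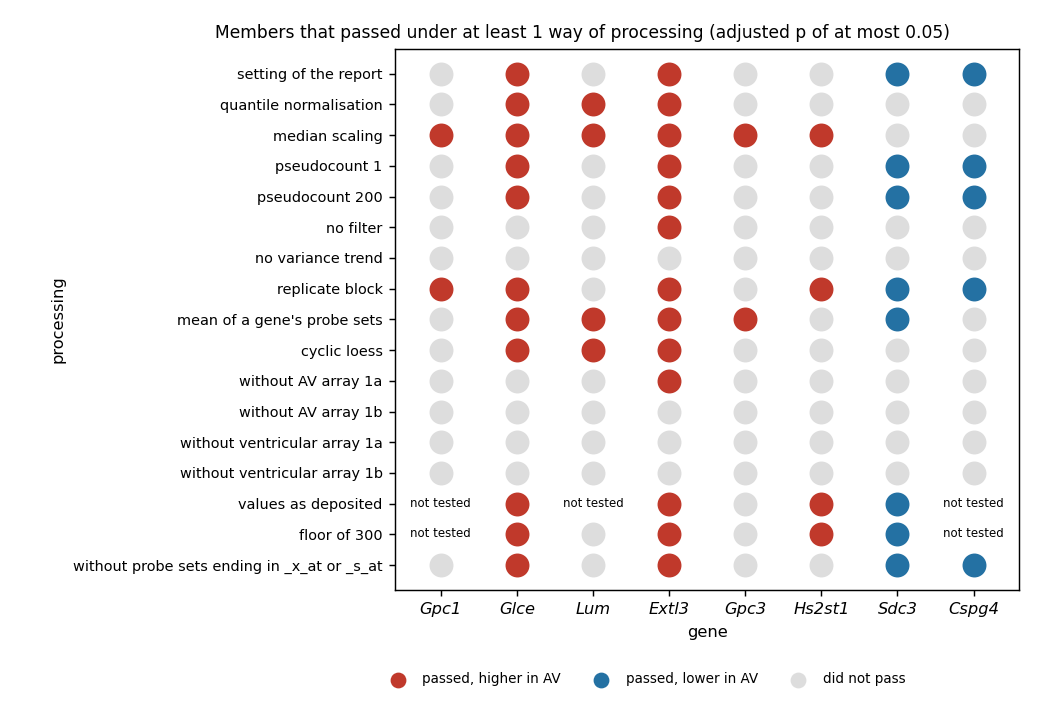
Calls at an adjusted p of at most 0.05 for the 8 members that passed under at least 1 way of processing (rows), red for higher and blue for lower in the AV junction and grey for no pass. Extl3 is red in most rows, and the rows without 1 array are almost all grey.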

How the data were processed

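The deposited values are linear intensities, 1 per probe set and array. The authors made these intensities in MAS5, as the submitters' processing notes name it. A version and detection calls are not given in the sources used here. All 4 arrays were brought to the same mean of 500, computed over 22626 non-control probe sets after trimming 2% from each end. Probe sets with a mean of at least 100 were tested (13403 of them). The fit used limma 3.58.1 (lmFit, eBayes with trend) in R 4.3.3 on log2(intensity + 50) with region alone as a term, with 7.43 total degrees of freedom, and all adjusted p-values are limma's after Benjamini-Hochberg adjustment. Log2 folds and folds come from that fit and include the added 50, which understates changes of dim genes.

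Symbols came from the platform annotation, checked through Entrez ids, of which 0 changed, and 20380 probe sets had 1 symbol. A fold is given as "at least" where neither array of the low region exceeded the brightest of 27 Bacillus subtilis controls. That bound sets the high region's mean log2 intensity, without the added 50, against the mean log2 of those controls. No level was set against that of another probe set, save the Gpc3 to Gpc4 ratio within arrays. All members on the array were named, and of the other pathway genes the 10 largest differences that passed. The members and lists were chosen with earlier results of these data known. The number of arrays limits the precision. The 4 scanner records share 1 chip lot and 1 scanning day, so neither separates the regions. Figures were drawn with matplotlib 3.10.9.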

Additional observations from a re-analysis of the deposited data

How the results depend on the processing

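Alternatives changed 1 choice at a time, except that the values as deposited, about 3.35 times smaller on every array, in effect also raise the floor and the added 50 by that factor. All were planned except the cyclic loess, which was chosen after seeing the data. Members higher in the AV junction numbered 6 with median scaling, 1 with no filter, 0 without the variance trend, 4 with the replicate block and 4 when probe sets of a gene were averaged, and 0 to 1 with 1 array left out. Members lower numbered 0 with quantile normalisation, median scaling, no filter, no variance trend or cyclic loess, 1 with the values as deposited (12 members tested), a floor of 300 (14 tested) or the mean of probe sets, and 0 with any 1 array left out. The members' median log2 fold of -0.06 became 0.054 with quantile normalisation, 0.10 with median scaling, 0.185 with the values as deposited, 0.23 with a floor of 300 and 0.070 with cyclic loess, and -0.11 to 0.0071 with 1 array left out. Over all genes tested the median was -0.06. Under the same settings it was -0.0088, 0.10, 0.026, 0.024, -0.00016 and, with 1 array left out, -0.074 to -0.037. The members' median thus lay above that of all genes with quantile normalisation, the values as deposited, the higher floor and cyclic loess. With median scaling it did not. It also lay above without AV array 1b (0.0071 against -0.074) or ventricular array 1a (-0.0051 against -0.037). Without AV array 1a (-0.11 against -0.037) or ventricular array 1b (-0.081 against -0.056) it lay below. Other pathway genes lower numbered 1 without the trend and 1 to 3 with 1 array left out. Fewer members were tested with the values as deposited and with the higher floor; for the others the cause was not tested. Over all genes, calls numbered 712 higher and 550 lower, and 1208 and 286 with median scaling, so 80.9% of calls were higher against 56.4%. Totals at large were 438 and 269 with no filter, 243 and 209 without the trend and 960 and 852 with the replicate block. They were 621 and 636 when probe sets of a gene were averaged, 663 and 496 with quantile normalisation and 660 and 506 with cyclic loess. Deviations from the region means correlated at 0.06 between same-lettered arrays, so little deviation was shared by letter. Within a region the deviations of 1a and 1b mirror each other, so both letters give this same value. It cannot settle whether the letters pair the arrays. The block brought in Hs2st1 and Gpc1 and lost none of the 4 members that passed. Leaving out an array leaves 1 array in that region, which is assumed to vary like the others. The share of calls over all genes tested then fell too, in both directions and whichever array was left out. Other pathway genes higher numbered 6 to 9 under every alternative.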
